A study of Xenopus laevis with 3 samples.

Results

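Genes of antioxidant defence, glutathione metabolism and oxidoreductase chemistry were followed in the inner ear of *X. laevis* larvae. They were chosen by name, taking every probe set (Xl-PSID) whose annotation gave a single gene symbol with the stem of a glutathione enzyme, peroxiredoxin, thioredoxin, glutaredoxin, superoxide dismutase, methionine sulfoxide reductase, quinone reductase or heme oxygenase, of *keap1*, or of a cytochrome P450, alcohol or aldehyde dehydrogenase, epoxide hydrolase, flavin monooxygenase, aldo-keto or carbonyl reductase or copper amine oxidase. The *cyp26* and *aldh1a* genes, which handle retinoic acid, were left out. This gave 180 of the 32635 Xl-PSIDs on the array, with 143 symbols that stand for 117 of the 9271 genes with a symbol of their own when the L and S homeologs of the allotetraploid genome are joined.

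Glutathione is a small cysteine-containing peptide that cells keep reduced with NADPH. Glutathione peroxidases and peroxiredoxins use it or thioredoxin to remove peroxides, glutathione transferases attach it to reactive compounds, and P450s, dehydrogenases and carbonyl reductases oxidise or reduce sterols, aldehydes and foreign compounds. In the inner ear, hair cells are known for their sensitivity to oxidative damage by noise, ageing and aminoglycoside antibiotics.

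The study followed inner ear gene expression during *Xenopus* development. The arrays used here form a single group, *s50*, of larvae of stages 50 to 52, aged 15 to 21 days after fertilization and bought from a commercial supplier. The arrays s50_1, s50_2 and s50_3 each hold RNA from the pooled inner ears of 15, 38 and 24 animals, in this order, and labelling started from 1 µg, 1 µg and 0.7 µg of total RNA. Whole inner ears were taken, so sensory, supporting, nerve, cartilage and blood cells share each pool, and fewer cells of a type cannot be told apart from less RNA per cell. With 1 group there is no contrast to test. The results are a description of 3 pools, and no p-value is given.

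Values are GCRMA log2 intensities in arbitrary units, given for s50_1, s50_2 and s50_3 in this order unless arrays are named, or as the mean ± SD (n = 3). The threshold for detection was a mean of 4 or more, the average intensity required by the study's methods before an Xl-PSID could be called upregulated. The brightness of an Xl-PSID depends on its probes, so differences were taken between arrays. Where Xl-PSIDs are ranked by brightness or set beside others by level, the order is one of signal and not of transcript amount. Control probe sets for *Bacillus subtilis* transcripts, which larval tissue should lack, had values from 1.83 to 2.17 on single arrays (27 probe sets). Values near this floor have no order.

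The label of the tissue was checked against markers. Of 22 listed hair cell markers 6 were measured, and all 6 were detected, among them *myo6*.L (12.65 ± 0.44), an unconventional myosin of hair bundles. Of 16 listed supporting cell, tectorial and otoconial markers 5 were measured. All 5 were detected, including the gap junction gene *gjb2*.L (14.61 ± 0.17) and *otoa*.L (12.53 ± 0.25). The other listed markers had no Xl-PSID with their symbol alone. As 73.3% of all Xl-PSIDs with a single symbol were detected, this was a weak check. Markers of other tissues were present too. Of 24 measured skeletal muscle genes 21 were detected, and s50_1 was the array where all 21 fell short of their own mean, by a median of -0.73, against 0.39 for s50_2 and 0.43 for s50_3. Their summed linear intensity was 106649, 195933 and 221665, and the myogenic factors *myod1*.S, *myf5*.L and *myog*.S stayed at the floor. Neuron genes had median differences of 0.26, -0.03 and -0.28 (16 of 19 detected). Pearson's r over all Xl-PSIDs lay between 0.956 and 0.979 for the pairs of arrays.

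Most of the redox genes were detected. Of the 180 Xl-PSIDs, 137 (76.1%) had a mean of at least 4, against 64.8% of all Xl-PSIDs and 73.3% of those with a single symbol. The same 64.8% and 73.3% are the background for the counts of Xl-PSIDs detected in each role below. At the level of genes, with the brightest Xl-PSID standing for a gene, 94 of 117 were detected and 23 were not. Taking the brightest of several Xl-PSIDs raises the share detected. The share over all 9271 genes with a symbol was not computed, so counts of detected genes, here and below, have no background. The median level was 10.31 for the members, 7.49 for all Xl-PSIDs and 8.78 for those with a symbol. A mean of at least 12 was found for 34 of the 180 members, against 3074 of all 32635 Xl-PSIDs and 2089 of the 15505 with a single symbol. Of the 43 members not detected, 36 had a mean below 2.5, near the floor. These were 20.0% of the 180, against 28.0% of all Xl-PSIDs and 20.6% of those with a single symbol.

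**Figure D1:**
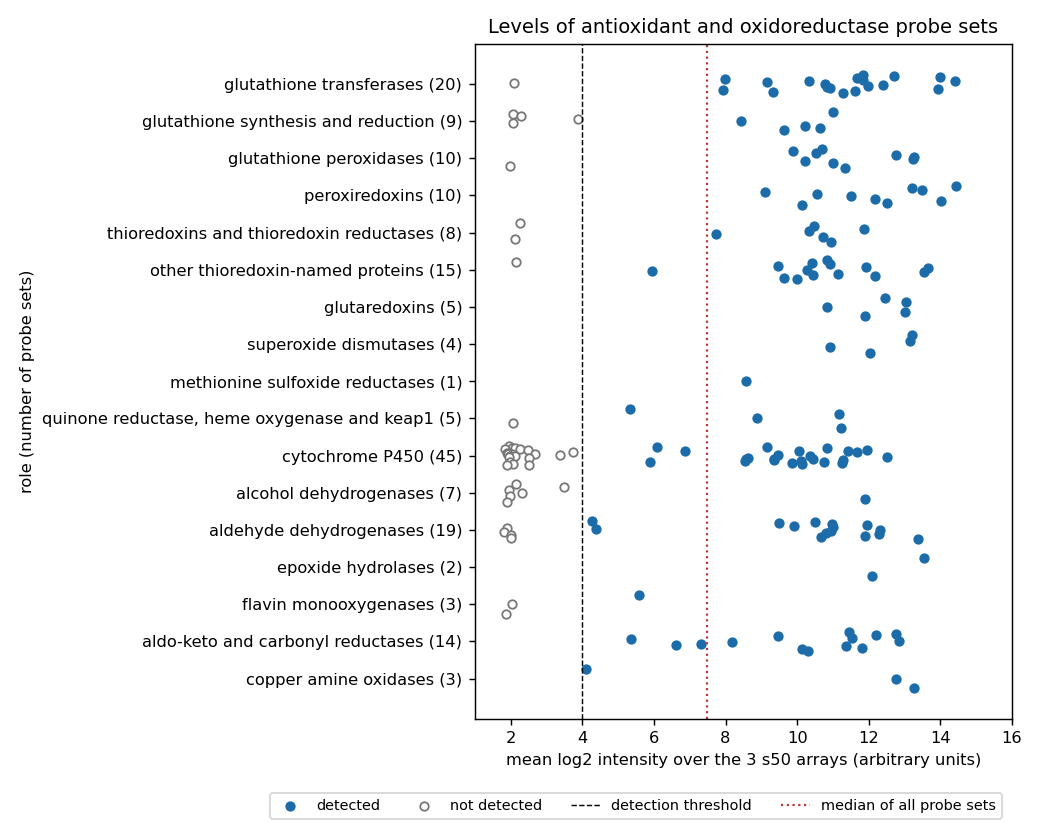
Mean log2 intensity (x axis, arbitrary units) of each of the 180 Xl-PSIDs over the 3 *s50* arrays, by role (y axis, with the number of Xl-PSIDs). Filled points are detected, open points are not, the dashed line is the detection threshold of 4 and the dotted line the median of all Xl-PSIDs (7.49); most open points belong to cytochrome P450s and alcohol dehydrogenases.

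The enzymes that make and recycle glutathione were each detected. The catalytic subunit of glutamate-cysteine ligase, the rate-limiting enzyme of glutathione synthesis, had intensities of 10.45, 11.33 and 11.21 for *gclc*.L and 8.01, 8.51 and 8.76 for *gclc*.S. Its modifier subunit *gclm*.L had 9.67, 10.24 and 10.74. Glutathione synthetase *gss*.L, which completes the peptide, had 9.33, 9.43 and 10.11, and glutathione reductase *gsr*.L, which regenerates it with NADPH, had 10.45, 10.87 and 10.55. All 5 of these Xl-PSIDs were lowest on s50_1, as were 42.3% of all detected Xl-PSIDs. The other 4 Xl-PSIDs of *gclc*.L were not detected, and the nearest to the threshold (Xl2.3837.3.A1_x_at) had 4.06, 3.91 and 3.71.

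Glutathione transferases were detected with 19 of 20 Xl-PSIDs, which stand for 10 of 11 genes. Only *gsto2*.L, of the omega class, was at the floor (2.08 ± 0.03). The brightest were *gstm1*.S of the mu class (14.37, 14.34 and 14.47), *gsta1*.S of the alpha class (13.88, 14.09 and 14.02) and *gstt1*.L of the theta class (13.73, 13.95 and 14.10). A second *gsta1* copy, *gsta1*.L, had 12.44, 12.99 and 12.68 on its brighter Xl-PSID. These bright Xl-PSIDs differed little between pools, with SDs from 0.07 to 0.28.

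The transferases were mostly lowest on the same array and varied in which was highest. They were lowest on s50_1 in 17 of 19 detected Xl-PSIDs, from 9 genes, against 42.3% of all detected Xl-PSIDs, none was lowest on s50_3, and the highest value fell on s50_2 for 8 and on s50_3 for 11. All 19 were higher on s50_3 than on s50_1 (against 53.6% of all detected Xl-PSIDs), with a median difference of 0.52 against 0.09 for all. The zeta-class gene *gstz1*.L, of tyrosine breakdown, had 10.42, 11.42 and 11.99, and *gstk1*.L, a kappa-class enzyme of mitochondria and peroxisomes, had 11.28, 11.84 and 12.40. Its homeolog *gstk1*.S had 9.48, 10.74 and 10.78. An exception was 1 Xl-PSID of *gstt1-like.2*.L (Xl2.54285.1.S1_s_at) with 8.32, 7.15 and 8.34, lowest on s50_2, while the other Xl-PSIDs of that gene were lowest on s50_1.

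The pi-class gene *gstp1*.L is among the genes that the study lists as differing between stages, and its detection at *s50* follows from the filter used there. On the *s50* arrays its 5 Xl-PSIDs fell into separate patterns. The Xl-PSIDs Xl2.54920.1.A1_at (10.04, 12.14 and 10.30) and Xl2.54920.1.A1_x_at (10.11, 12.28 and 10.39) were high on s50_2 alone, with ranges of 2.11 and 2.17. The other 3 Xl-PSIDs had ranges of 0.78 to 0.90, for example 11.55, 12.34 and 12.07 for Xl2.5475.1.S1_x_at. All 5 were lowest on s50_1, as were 42.3% of all detected Xl-PSIDs. Whether the probes of these Xl-PSIDs match different transcripts was not tested.

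Glutathione peroxidases were detected with 9 of 10 Xl-PSIDs, from all 5 genes. Both homeologs of *gpx4*, which reduces lipid hydroperoxides in membranes, were bright, with 13.13, 13.22 and 13.44 for *gpx4*.S and 12.89, 13.27 and 13.56 for *gpx4*.L. The secreted enzyme *gpx3*.L had 12.66, 12.63 and 13.03. The homeologs of *gpx8*, of the endoplasmic reticulum, stood on opposite sides of the threshold: *gpx8*.L had 10.82, 11.33 and 11.87, and *gpx8*.S was at the floor on every array (1.98 ± 0.03). The widest range of the family was that of *gpx8*.L (1.04), followed by *gpx1*.L (9.86, 9.40 and 10.37), a cytosolic enzyme, and *gpx3*.S (10.02, 10.95 and 10.59). The intensities of *gpx7*.L, of the endoplasmic reticulum, were 10.93, 11.40 and 10.69. Its homeolog *gpx7*.S had 9.79, 10.45 and 10.43. The homeologs of *gpx1*, of *gpx3* and of *gpx7* were lowest on different arrays.

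All 10 peroxiredoxin Xl-PSIDs, from 6 genes, were detected. These thiol peroxidases are among the most abundant proteins of many cells. The Xl-PSID of *prdx1*.S had the highest mean of all members and the same value in each pool to within 0.02 (14.41, 14.43 and 14.42). The mitochondrial and peroxisomal *prdx5*.L (14.05, 14.04 and 13.96) and the cytosolic *prdx2*.L (13.45, 13.40 and 13.58) were also steady, as was *prdx1*.L (13.09, 13.16 and 13.35). The median SD of the family was 0.17, against 0.45 for all detected members and 0.48 for all detected Xl-PSIDs. These sets were not matched for level: the family had a median of 12.34, against 10.90 and 9.66, and brighter Xl-PSIDs vary less.

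A pair of peroxiredoxin Xl-PSIDs broke from this pattern on s50_3. The secretory pathway gene *prdx4*.S had 12.06, 12.03 and 10.40, while its homeolog *prdx4*.L had 11.86, 12.06 and 12.59 and was highest on s50_3. The intensity of *prdx6*.L, which also has phospholipase activity, was 10.72, 10.67 and 9.03, while *prdx6*.S had 12.44, 12.66 and 12.41. In the mitochondrion, *prdx3*.L (8.89, 9.09 and 9.29) and *prdx3*.S (10.18, 10.60 and 10.93) were both lowest on s50_1.

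Thioredoxin itself and its reductases were detected with 6 of 8 Xl-PSIDs, from all 5 genes. Cytosolic *txn*.L had 10.29, 11.13 and 9.97 on an Xl-PSID that was highest on s50_2, and its second Xl-PSID was at the floor (2.25 ± 0.14). Mitochondrial *txn2*.L had 12.01, 12.14 and 11.42 on the brighter Xl-PSID and 9.97, 10.31 and 10.68 on the other, so the array with the lowest value depended on the Xl-PSID. The reductases *txnrd3*.L (10.65, 10.94 and 11.26), *txnrd2*.S (10.29, 10.70 and 11.20) and *txnrd1*.L (7.74 ± 0.45) were all lowest on s50_1, as were 42.3% of all detected Xl-PSIDs.

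Other proteins named for thioredoxin ran the opposite way between pools. They were lowest on s50_3 in 12 of 14 detected Xl-PSIDs, from 8 genes, against 36.2% of all detected Xl-PSIDs, and their median difference between s50_3 and s50_1 was -0.52, against 0.09 for all. The neuron list had a median difference of -0.28 on s50_3, with 13 of 16 detected genes below their own mean. The liver list had -0.18 (4 of 6), the supporting cell, tectorial and otoconial list -0.13 (3 of 5) and the erythroid list -0.05 (9 of 15). The part of these lists in the order of the thioredoxin-named proteins was not tested. The disulfide isomerase *txndc5*.L had 13.76, 13.85 and 13.31, the spliceosome component *txnl4a*.S had 12.17, 12.37 and 11.96, and *txndc17*.S had 11.96, 11.91 and 11.86. The difference was larger for *txndc9*.L, a regulator of the chaperonin, with 11.11, 10.67 and 9.02, and for *txnl4b*.S, related to *txnl4a*, with 9.78, 10.20 and 8.89. The exceptions were both homeologs of *txnl1*, a thioredoxin bound to the proteasome: *txnl1*.S had 10.22, 11.32 and 11.83 and *txnl1*.L had 9.71, 10.72 and 10.93. In this group *txndc12*.S also had an Xl-PSID at the floor (2.14 ± 0.07), while its second had 11.03, 11.04 and 10.64.

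The widest range among all members belonged to *txnip*.L, the arrestin-like inhibitor of thioredoxin. Its Xl-PSID Xl2.46272.1.S1_at had 8.88, 5.65 and 3.30 over the arrays, which makes a range of 5.59. The second Xl-PSID of the gene, Xl2.46272.2.S1_at, had 13.74, 13.75 and 13.16, a range of 0.59. Both were lowest on s50_3, and the size of the difference rested on the Xl-PSID.

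Glutaredoxins, which reduce disulfides with glutathione, were detected with all 5 Xl-PSIDs. The intensities of *glrx3*.L (12.98, 12.92 and 13.22) and *glrx5*.S (12.77, 13.26 and 13.05), which serve iron-sulfur proteins, and of *glrx*.L (11.86, 12.74 and 12.76) exceeded 11 on each array. All 5 were higher on s50_3 than on s50_1 (against 53.6% of all detected Xl-PSIDs), by up to 1.04 for *glrx5*.L (11.24, 12.20 and 12.28).

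Superoxide dismutase Xl-PSIDs were steady except for the dimmest, which had a range of 0.62. The family was not matched for level, with a median of 12.59 against 9.66 for all detected Xl-PSIDs, and brighter Xl-PSIDs vary less. The cytosolic copper and zinc enzyme had 13.20, 13.20 and 13.24 for *sod1-A* and 12.95, 13.21 and 13.30 for the brighter Xl-PSID of *sod1-b*, whose second Xl-PSID had 10.71, 10.70 and 11.32. The manganese enzyme of mitochondria, *sod2*.S, had 11.83, 12.11 and 12.12. Methionine sulfoxide reductase *msra.1*.L, which repairs oxidised methionine, had 8.60, 8.62 and 8.54.

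Genes of the stress-inducible response differed in which array was lowest. NAD(P)H quinone reductase *nqo1*.L had 10.73, 11.33 and 11.61. The inducible heme oxygenase *hmox1*.L had 11.31, 11.46 and 10.71, and *hmox1*.S had 5.72, 6.77 and 3.52, so both homeologs were highest on s50_2 and lowest on s50_3. The range of *hmox1*.S was 3.25. The constitutive heme oxygenase *hmox2*.S had 8.97, 7.93 and 9.75, lowest on s50_2. The sensor gene *keap1*.L was at the floor on every array (2.06 ± 0.03), although its target, the transcription factor gene *nfe2l2*.L, had 12.99 ± 0.25. No other Xl-PSID carried the symbol *keap1* alone.

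**Figure D2:**
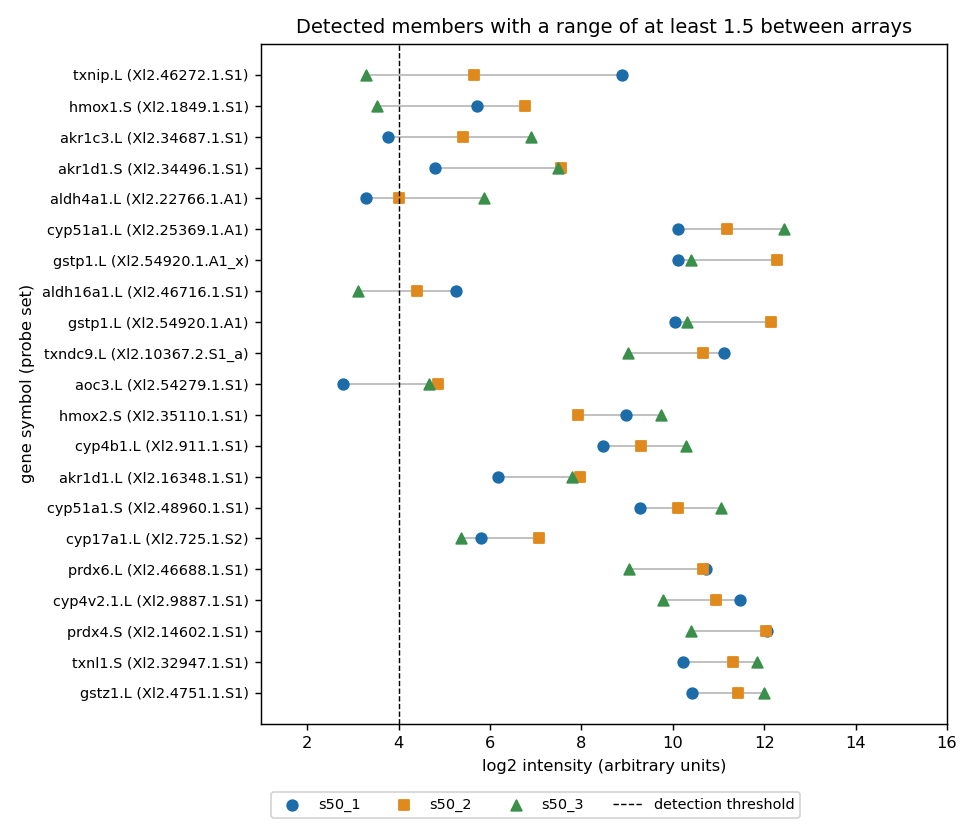
Log2 intensity (x axis, arbitrary units) on s50_1 (circles), s50_2 (squares) and s50_3 (triangles) of the 21 detected members whose highest and lowest array differed by at least 1.5 (y axis, symbol and Xl-PSID without its ending), widest range at the top. The *txnip*.L Xl-PSID spans 8.88 to 3.30, and *gstp1*.L is high on s50_2 only.

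Cytochrome P450s were the largest family, with 45 Xl-PSIDs for 32 genes. Of these, 24 Xl-PSIDs for 20 genes were detected, a smaller share than the 64.8% of all Xl-PSIDs or 73.3% with a single symbol. The brightest was *cyp39a1*.L, an oxysterol hydroxylase (11.95, 12.42 and 13.14). It was followed by *cyp27c1*.S (11.54, 12.01 and 12.35), whose zebrafish and bullfrog counterparts convert vitamin A to its dehydro form, *cyp2a6.3*.L (11.78, 12.07 and 11.16) and *cyp2a6.1*.S (10.73, 11.42 and 12.13). The brain cholesterol hydroxylase family was present with *cyp46a1.3*.L (11.28 ± 0.18) and *cyp46a1.2*.L (8.57 ± 0.44), and aromatase *cyp19a1*.L, which makes estrogens, had 8.78, 9.82 and 8.90. Among the detected P450 Xl-PSIDs, 19 of 24 were lowest on s50_1, against 42.3% of all.

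The lanosterol demethylase gene *cyp51a1*, of cholesterol synthesis, was graded over the arrays on each of its 3 Xl-PSIDs. The intensity of *cyp51a1*.L was 10.11, 11.19 and 12.43 on Xl2.25369.1.A1_at and 9.27, 9.67 and 10.64 on Xl2.25369.2.S1_at, and *cyp51a1*.S had 9.27, 10.12 and 11.05. Here separate Xl-PSIDs of both homeologs gave the same order, lowest on s50_1 and highest on s50_3, with ranges of 1.37 to 2.32. Of all detected Xl-PSIDs, 31.3% had this order. A similar order was found for *cyp4b1*.L (8.47, 9.31 and 10.28), while *cyp4v2.1*.L, a fatty acid hydroxylase, ran the opposite way (11.47, 10.95 and 9.79). The steroid-forming *cyp17a1*.L had 5.80, 7.08 and 5.38 on its detected Xl-PSID, highest on s50_2.

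The P450s that were not detected included the classic inducible gene *cyp1a1*, with both homeologs at the floor (*cyp1a1*.L 2.02 ± 0.03 and *cyp1a1*.S 2.12 ± 0.04), the adrenal *cyp21a2.1*.L, the bile acid gene *cyp8b1.1*.S, and *cyp2a6.4*.L, *cyp2a6.8*.L, *cyp2a6.9*.L, *cyp2b6*.L, *cyp2c8.1*.L, *cyp2f1*.S and *cyp2j2*.L. The receptor gene that induces *cyp1a1*, *ahr*.S, was not detected either (2.91 ± 0.11), although its partner *arnt*.S was (9.64 ± 0.86). Further Xl-PSIDs of *cyp17a1*.L, *cyp3a4.1*.L and *cyp4f22*.S and the L copy of *cyp27c1* were not detected, while another Xl-PSID of each of these genes was.

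Not every P450 below the threshold was at the floor. The gene *cyp2a6.12*.L, for which the study's tables give another *cyp2* symbol, had 1.94, 5.33 and 3.93, which makes a range of 3.39 around a mean of 3.73. In the same way *cyp2c8.2*.L had 2.08, 2.98 and 5.07, so each was above 4 on a single array. Closest to the threshold were *aoc3*.L (4.10 on its dimmest Xl-PSID), *aldh16a1*.L (4.26) and *aldh4a1*.L (4.39) on the upper side, and *gclc*.L (3.89), *cyp2a6.12*.L (3.73) and *adh1a*.S (3.50) on the lower side. In all, 6 detected members had an array below 4 and 3 members not detected had an array at or above it.

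Many P450s and alcohol dehydrogenases are known from the liver. Of 20 measured liver genes 6 were detected, *tf*.L (12.71 ± 0.12), *hpd*.L (10.71 ± 0.79), *serpina1*.L (10.43 ± 0.90), *tat*.S (6.89 ± 0.81), *ahsg*.L (6.12 ± 1.43) and *c3*.L (5.88 ± 0.19), and the list had a median level of 2.25. The other 14 were not detected, among them the plasma protein genes *apoa1*.L (1.99 ± 0.06), *ttr*.L (2.05 ± 0.13) and *fgb*.L (2.05 ± 0.02) and the liver transcription factor gene *hnf4a*.S (2.02 ± 0.03), all at the floor. The linear intensities of the list summed to 9064, 11708 and 10584. Of all Xl-PSIDs with a single symbol 73.3% were detected, although the list holds only the brightest Xl-PSID of each gene. Whether the liver genes bear on the P450s and alcohol dehydrogenases that were not detected was not tested.

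Alcohol dehydrogenases were mostly absent from the detected set. Only *adh5*.L, which oxidises the glutathione adduct of formaldehyde, was detected among 7 genes, with 11.44, 11.73 and 12.52. The Xl-PSIDs of *adh1-a*, *adh1b*.L, *adh1c*.S, *adh4*.L and *adh7*.S had means from 1.90 to 2.32, and *adh1a*.S had 3.47, 3.55 and 3.48. The gene *adh4*.L, also in the study's tables, was at the floor on each array (1.98 ± 0.03).

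Aldehyde dehydrogenases were detected with 15 of 19 Xl-PSIDs, from 9 of 10 genes. The brightest were *aldh9a1*.S (12.96, 13.27 and 13.87), which makes a carnitine precursor, *aldh4a1*.L of proline breakdown (12.10, 12.62 and 12.22), *aldh6a1*.L of valine breakdown (12.42, 12.34 and 12.08) and mitochondrial *aldh2*.L (12.03, 11.86 and 11.98). No common order was seen, with 7 Xl-PSIDs lowest on s50_1 and 7 lowest on s50_3, against 42.3% and 36.2% of all detected Xl-PSIDs. The homeologs of *aldh16a1* moved in opposite directions: *aldh16a1*.L had 5.25, 4.41 and 3.12, and *aldh16a1*.S had 9.78, 10.47 and 11.24. Both homeologs of *aldh6a1* were lowest on s50_3, with 11.01, 11.29 and 10.14 for *aldh6a1*.S. A dim Xl-PSID of *aldh4a1*.L (Xl2.22766.1.A1_at) had 3.28, 4.01 and 5.88, a difference not seen on its bright ones, and *aldh3b1*.L was the gene not detected (1.90 ± 0.02).

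Both epoxide hydrolases were detected, *ephx1*.L of the microsomes with 13.62, 13.32 and 13.73 and the soluble *ephx2*.L with 11.42, 12.19 and 12.64. Of the flavin monooxygenases, *fmo2*.L had 4.76, 5.80 and 6.16, and *fmo5.1*.L (2.04 ± 0.03) and *fmo5.2*.S (1.87 ± 0.02) were at the floor. The amine oxidase gene *aoc3*.L, which encodes a vascular adhesion protein, had 12.26, 12.63 and 13.35 and 12.81, 13.27 and 13.72 on a pair of bright Xl-PSIDs. Its dimmest Xl-PSID, Xl2.54279.1.S1_at, which the study's tables list, had 2.78, 4.85 and 4.66. All 3 were lowest on s50_1, as were 42.3% of all detected Xl-PSIDs.

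Aldo-keto and carbonyl reductases were detected with all 14 Xl-PSIDs, from 11 genes. They were lowest on s50_1 in 11 of the 14, against 42.3% of all detected Xl-PSIDs. The difference between s50_3 and s50_1 was positive for 12 (against 53.6%) and had a median of 0.98 (against 0.09). Aldose reductase *akr1b1*.S was bright and steady (12.66, 12.76 and 12.88), and *akr1c1*.L (11.89, 12.05 and 12.66) and the carbonyl reductase *cbr1.1*.S (11.33, 11.72 and 12.36) followed. The steroid reductase gene *akr1d1* was low on s50_1 in both homeologs, with 6.17, 7.97 and 7.79 for *akr1d1*.L and 4.79, 7.56 and 7.49 for *akr1d1*.S. The gene *akr1c3*.L had 3.77, 5.41 and 6.90 on Xl2.34687.1.S1_at, a range of 3.13, and 12.35, 12.93 and 13.28 on Xl2.47354.1.S1_s_at, which can match several transcripts and had the same order with a range of 0.93. The related *akr1c8p*.S had 7.58, 7.92 and 9.06, highest on s50_3.

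**Figure D3:**
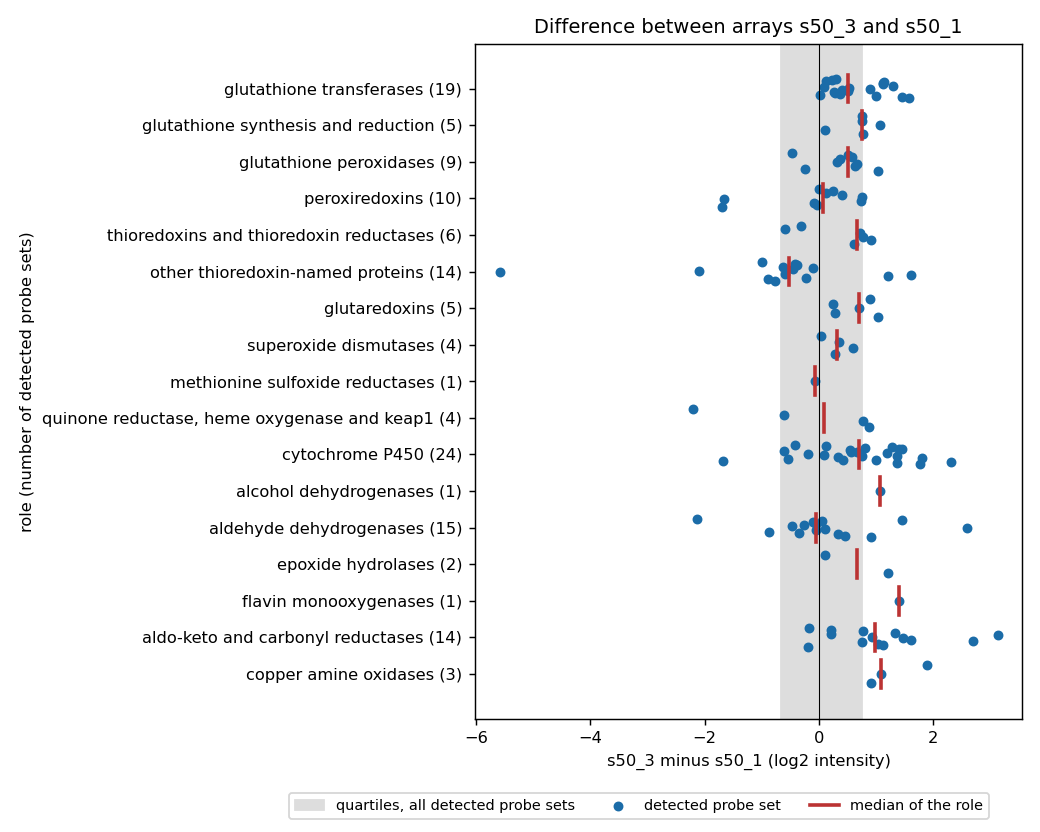
Difference in log2 intensity between s50_3 and s50_1 (x axis) for each detected member, by role (y axis, with the number detected). Red bars are medians (for example 0.52 for glutathione transferases and -0.52 for other thioredoxin-named proteins), the vertical line is 0 and the grey band spans the quartiles of all detected Xl-PSIDs (-0.67 to 0.76).

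Over all roles, the detected members were lowest on s50_1 more often than other Xl-PSIDs. This held for 89 of 137 (65.0%), against 42.3% of all detected Xl-PSIDs and 44.8% of those with a single symbol, while 12 (8.76% against 21.5%) were lowest on s50_2 and 36 (26.3% against 36.2%) on s50_3. The highest value fell on s50_1 for 12 members (8.76% against 33.8%), on s50_2 for 51 (37.2% against 23.4%) and on s50_3 for 74 (54.0% against 42.8%). Members that were lowest on s50_1 and highest on s50_3 numbered 64 (46.7% against 31.3%), and the reverse order was found for 10 (7.30% against 23.7%). When members with a range under 0.5 were left out, the counts were 54 of 103 (52.4% against 33.5%) and 7 of 103 (6.80% against 25.7%). Taken against its own mean, the median member differed by -0.28 on s50_1, by 0.11 on s50_2 and by 0.20 on s50_3, against -0.03, 0.03 and 0.05 for all detected Xl-PSIDs. Of the tissue lists, skeletal muscle had a median difference of -0.73 on s50_1, melanocyte -0.40 (3 of 4 detected genes below their own mean), leukocyte -0.37 (7 of 9) and liver -0.32 (4 of 6). Their part in this order was not tested. Xl-PSIDs of a gene and homeologs share a source, so these counts are not counts of independent genes. The shares were not split by level, and the detected members had a median level of 10.90, against 9.66 for all detected Xl-PSIDs.

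**Figure D4:**
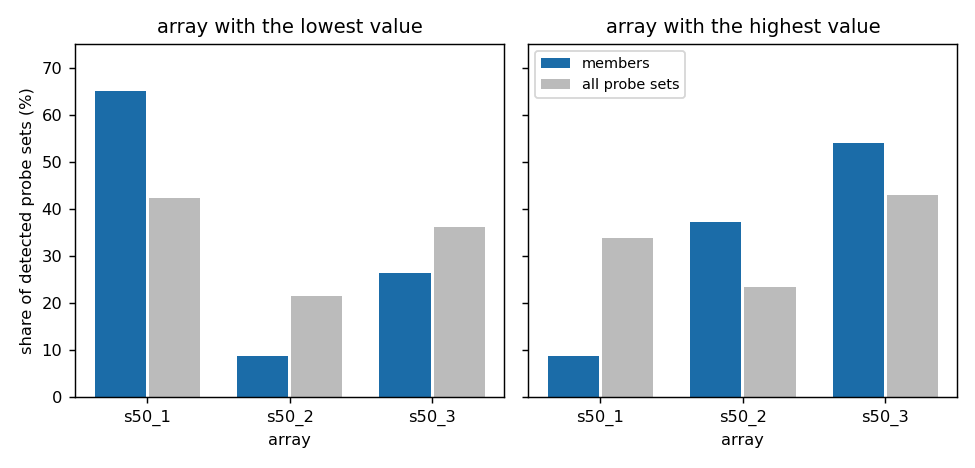
Share (y axis, %) of the 137 detected members (blue) and of all 21156 detected Xl-PSIDs (grey) whose lowest (left panel) or highest value (right panel) fell on each array (x axis). On s50_1 the lowest value fell for 65.0% of members against 42.3% of all, and the highest for 8.76% against 33.8%.

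The size of the differences was modest for most members. The median SD of the detected members was 0.45, against 0.48 for all detected Xl-PSIDs, and 21 of 137 (15.3%) had a range of at least 1.5, against 26.5% of all detected Xl-PSIDs. Dim Xl-PSIDs vary more, and members were brighter, so the share was also taken by level. Between 8 and 10 it was 2 of 23 members (8.70% against 29.4%), between 10 and 12 it was 10 of 65 (15.4% against 14.4%), and above 12 it was 0 of 34 (against 3.74%). Below 6 it was 6 of 8, against 54.9%, and between 6 and 8 it was 3 of 7, against 44.6%. The 6 were the detected members with an array below the detection threshold, so they passed it only through their other arrays.

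Few members stood at least 1.5 apart from the mean of the other arrays. On s50_1, 6 were below (4.38% against 4.9% of all detected Xl-PSIDs), the *akr1c3*.L, *aldh4a1*.L, *aoc3*.L, *cyp51a1*.L and both *akr1d1* Xl-PSIDs described above, and only *txnip*.L was above (0.73% against 7.96%). On s50_2 none was below (against 2.76%), and *hmox1*.S and a pair of *gstp1*.L Xl-PSIDs were above (2.19% against 2.04%). On s50_3, 6 were below (4.38% against 9.2%), namely *txnip*.L, *hmox1*.S, *txndc9*.L, *aldh16a1*.L, *prdx6*.L and *prdx4*.S, and *akr1c3*.L, *aldh4a1*.L and *cyp51a1*.L were above (2.19% against 4.9%). Of the Xl-PSIDs named, those of *akr1c3*.L, *aldh4a1*.L and *aoc3*.L were under the detection threshold on s50_1. Those of *txnip*.L, *hmox1*.S and *aldh16a1*.L were under it on s50_3. They counted as detected only through their other arrays, and the shares of all detected Xl-PSIDs rest on the same rule.

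Several Xl-PSIDs of a gene did not always give the same call. Of 117 genes, 45 had several, and in 12 of these they lay on both sides of the threshold, namely *aldh4a1*, *aldh6a1*, *aldh7a1*, *cyp17a1*, *cyp27c1*, *cyp3a4.1*, *cyp4f22*, *gclc*, *gpx8*, *txn*, *txndc12* and *txnrd3*. All were detected in 29 genes and none in 4 (*cyp1a1*, *cyp21a2.1*, *cyp2j2* and *cyp8b1.1*). These counts were not taken over all genes with several Xl-PSIDs, so whether they are usual for the array is not known. Where at least 2 Xl-PSIDs of a gene were detected, they had the same direction between s50_1 and s50_3 in 28 of 34 genes (82.4%, against 67.3% of all 2716 such genes), with 21 higher and 7 lower on s50_3. Among 26 homeolog pairs, 23 were detected for both copies, 16 of these (69.6%, against 62.4% of all 1538 such pairs) had their lowest value on the same array and 13 (56.5%, against 61.6%) their highest. Detected members were higher on s50_3 than on s50_1 in 72.3%, against 53.6% of all, and lowest on s50_1 in 65.0%, against 42.3%. Such a common order makes agreement more frequent among members. These shares therefore do not compare how well Xl-PSIDs or homeologs of a gene match.

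**Figure D5:**
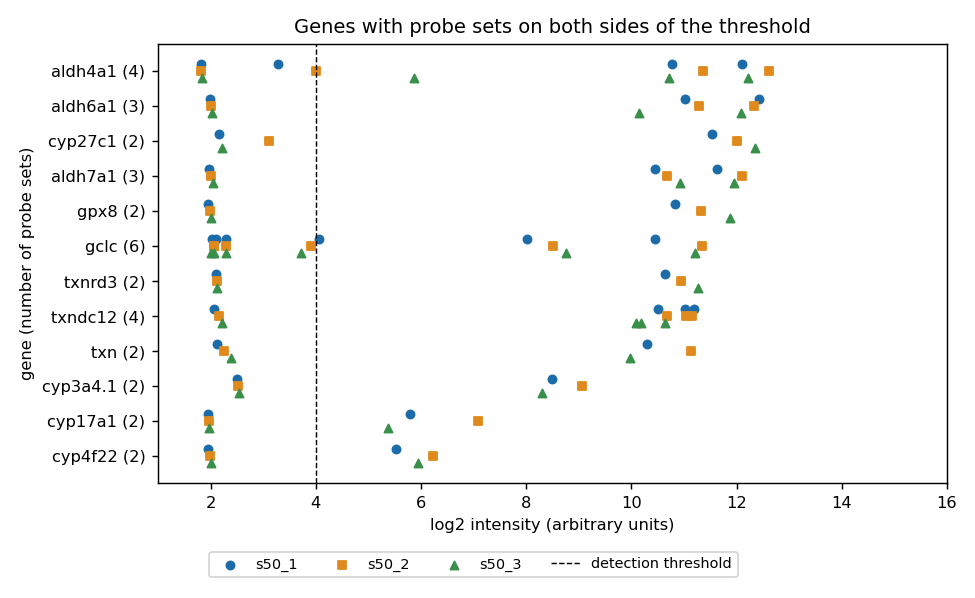
Log2 intensity (x axis, arbitrary units) of every Xl-PSID of the 12 genes (y axis, with the number of Xl-PSIDs) that had Xl-PSIDs both below and above the detection threshold of 4 (dashed line), on s50_1 (circles), s50_2 (squares) and s50_3 (triangles). Most of the Xl-PSIDs below the threshold sit near 2, the level of the control probe sets.

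A list of partner genes was set beside the members, holding the Nrf2 transcription factor and its regulators and the enzymes that supply NADPH, cystine, iron storage or disulfide exchange. Of 51 listed genes 31 were measured and 30 were detected, all but *ahr*.S. The brightest were *idh2*.S, the NADPH-forming isocitrate dehydrogenase of mitochondria (14.10 ± 0.04), *slc3a2*.L, a subunit of the cystine transporter (13.92 ± 0.09), *taldo1*.L of the pentose phosphate pathway (13.77 ± 0.02), the disulfide isomerase *p4hb*.L (13.72 ± 0.14), the transhydrogenase *nnt*.L (13.27 ± 0.29) and the microsomal transferase *mgst3*.L (13.08 ± 0.09). The list had a median level of 11.97. Of the members, 103 of 137 (75.2%) were under their own mean on s50_1, against 53.0% of all detected Xl-PSIDs. The partner list had 15 of 30 detected genes under their own mean on s50_1, with median differences of 0.00, 0.03 and -0.02 over the arrays. The units differ: the list holds only the brightest Xl-PSID of each gene, and the members hold every detected Xl-PSID. The 2 sets were not matched for level.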

How the data were processed

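Total RNA from pooled inner ears was amplified and labelled as biotinylated antisense cDNA and hybridized to Affymetrix *X. laevis* Genome 2.0 arrays, an array for each pool. The authors used JMP Genomics to preprocess the scans by GCRMA, and the deposited log2 intensities were taken here without further normalization. The sources used here do not state whether GCRMA covered these arrays alone. Raw scans were not used here, nor were arrays of later stages analysed. As the deposited values are background-corrected and summarised over probes, low values gather at a floor and read counts or depth do not apply; the number of arrays limits the precision.

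Symbols came from the platform annotation (15505 Xl-PSIDs with 1 symbol, 279 with several, 16851 with none; those with several or none were not members), and RefSeq held the gene identifiers of 177 of the 180 members and renamed 0, while 3 (of *sod1-A* and *sod1-b*) were not matched. Xl-PSIDs with the suffix s, x or a (22 members) can match several transcripts. A gene in a list was its brightest Xl-PSID. Counts, medians, SDs and ranges were computed with Python 3.11.15, numpy 2.4.6 and pandas 2.3.3, and the count of Xl-PSIDs standing apart was tested on simulated data. The simulated noise was smaller than the median SD of the arrays. Shifts larger than the threshold were planted in bright Xl-PSIDs only, so the test checked the counting and not the calls for dim Xl-PSIDs. Named are, for each role, the 4 brightest members and up to 4 with the widest range, members with a range of at least 3, those in the study's tables, those not detected and, of the partner list, the 6 brightest and those not detected; other genes were named after their values were seen. The members and lists were chosen with earlier results of these data known.

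Further lists gave detected genes of those measured as follows: erythroid 15 of 18, epidermis and skin gland 12 of 17, leukocyte 9 of 12, melanocyte 4 of 5, Schwann cell and myelin 5 of 6, cartilage and bone 9 of 11, and ubiquitous 15 of 15. Alternatives were other thresholds of detection and difference, quantile normalization, detection on every array, the median over arrays, other ways to represent a gene, leaving out Xl-PSIDs that can match several transcripts or the thioredoxin-named proteins, and leaving out each array.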

Additional observations from a re-analysis of the deposited data

How the results depend on the processing

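No paired analysis was possible because the arrays form a single group. Over 34 results and 16 alternatives, 241 of 263 values were counted as close to the reported ones. For a count, close meant a ratio of at most 1.5. For the median level it meant a shift under 0.25, and for a median difference a shift under 0.45. That last bound exceeds each reported median difference (-0.28, 0.11 and 0.20), so it could not show whether these held. The only change of sign was in a median difference given below, and the number of arrays is the limit on precision. Members detected ranged from 119 to 141 and genes detected from 89 to 97. The median level was 10.84 with 1 value for each gene. The count of members with a range of at least 1.5 was 6 to 16 without an array (6 without s50_3, 11 without s50_1), since fewer arrays give a smaller range, and 54 and 11 at thresholds of 1 and 2. At a threshold of 1, members standing apart numbered 22 below and 4 above on s50_1, 2 below and 7 above on s50_2, and 10 below and 16 above on s50_3. At 2 they numbered 2 below and 1 above on s50_1, 0 below and 2 above on s50_2, and 2 below and 2 above on s50_3. When an array was left out, the counts were 1 to 7 above on s50_1, 1 to 3 below and 5 to 8 above on s50_2, and 3 to 9 above on s50_3, each against a single other array or the mean of fewer arrays. The median difference of the members on s50_2, 0.11 over all arrays, changed sign to -0.05 without s50_1, where that of s50_3 was 0.05. With Xl-PSIDs of several possible transcripts left out, 0 methionine sulfoxide reductases and 1 epoxide hydrolase were left as detected, and at a threshold of 3, 2 alcohol dehydrogenases were detected. Counts of the order of arrays were examined under alternatives chosen after seeing the data: members lowest on s50_1 numbered 72 to 92, glutathione transferases lowest on s50_1 13 to 17, and thioredoxin-named proteins lowest on s50_3 9 to 12. The base changed too: 72 was of 103 members with a range of at least 0.5, and 92 was of 141 at a detection threshold of 3. The 13 transferases were of 14 left without Xl-PSIDs of several possible transcripts.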

Other observations

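Catalase, which breaks down hydrogen peroxide, was not among the members because its tandem copies carry numbered symbols that the naming rule does not match. On the *s50* arrays *cat.2*.L had 12.31, 12.49 and 12.56 on s50_1, s50_2 and s50_3, a steady level, while *cat.1*.L was at the floor (1.85 ± 0.01). The copy *cat.3*.L had 4.96, 7.01 and 8.49, which makes a range of 3.53, and its second Xl-PSID was at the floor (2.01 ± 0.09). An Xl-PSID annotated to both homeologs of *prdx4* had 13.45, 13.27 and 12.72, lowest on s50_3 like the Xl-PSID of *prdx4*.S and unlike that of *prdx4*.L.

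Among the partner genes, a few differed widely between pools. The cytosolic NADPH-forming isocitrate dehydrogenase *idh1*.L had 10.83, 8.92 and 7.56, lowest on s50_3, while mitochondrial *idh2*.S had 14.14, 14.08 and 14.08. The glutathione-cleaving transpeptidase *ggt1*.L had 4.64, 6.94 and 7.64, lowest on s50_1. The disulfide isomerase *pdia3*.S had 13.61, 12.79 and 11.46, while the related *pdia4*.L had 12.98, 13.13 and 13.05. These genes were singled out after their values were seen.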
